A study of Mus musculus with 5 samples.

Results

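Histone genes were examined in RNA-seq of the hippocampus of 3-month-old mice with and without a brain deletion of *Hdac1*, the gene of a class I histone deacetylase. Members were all rows whose symbol begins with Hist1h to Hist4h, H2af or H3f3, or is *H1f0* or *H1fx*. This rule took 80 of the 23361 genes listed. The 68 with symbols starting with Hist are called replication-dependent here, and the other 12 are variants. The 68 were taken by symbol alone. They include the pseudogene models *Hist2h3c2* and *Hist3h2bb-ps*, and *Hist4h4*, the only gene with a Hist4h symbol. The control mice carried the floxed allele alone (*Hdac1*f/f, n = 2), and the *Hdac1* cKO mice carried the same floxed allele with Nestin-Cre (n = 3), so both groups share the floxed gene. In the study Nestin-Cre removed *Hdac1* from neurons and astrocytes, while microglia kept it. Values are FPKM, which scale the fragments of a gene to its transcript length and to the mapped fragments of the library.

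Nucleosomes hold H2A, H2B, H3 and H4, and linker H1 binds where DNA enters and leaves. Replication-dependent histone genes lie in clusters, mostly lack introns and are transcribed in S phase, and their mRNAs end in a conserved stem-loop, bound by SLBP, in place of a poly(A) tail. Most variant genes lie outside these clusters, are transcribed throughout the cell cycle and give polyadenylated mRNAs. They can thus supply new histone in cells that have stopped dividing, such as neurons. Some replication-dependent genes also give polyadenylated mRNAs in differentiated cells.

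The stem-loop was searched on the mm9 genome as a perfect stem of 6 base pairs beginning with GG around a loop of 4 bases beginning with TTT, on the sense strand, from the gene start to 150 bases past the annotated end. It was found in 64 of 68 replication-dependent genes and in 1 of 12 variants, *H2afx*. The examples below are the genes with the lowest genotype p-values, the H4 gene with the highest FPKM and the variant with a match. Capitals mark the stem-loop, and 5 genomic bases are shown on each side.

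Hist1h2bf: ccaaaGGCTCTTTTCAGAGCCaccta

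Hist1h2bm: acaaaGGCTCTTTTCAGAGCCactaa

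Hist1h3d: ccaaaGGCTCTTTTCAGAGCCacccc

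Hist1h4m: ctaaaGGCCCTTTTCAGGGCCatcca

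Hist1h4c: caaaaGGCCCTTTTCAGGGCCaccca

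H2afx: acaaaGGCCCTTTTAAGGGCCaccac

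One form of the 16 bases, that of *Hist1h2bf*, was carried by 42 genes, none of them H4. The form in *Hist1h4m* was carried by 8 genes, all of them H4. *H2afx* has a form of its own. In *Hist1h2bf* and *Hist1h2bm* the annotated gene ends 29 and 46 bases after the stem-loop, whereas the *Hist1h3d* model runs on for 752 bases and that of *H2afx* for 816 bases. In 22 replication-dependent genes the model continued for more than 100 bases past the stem-loop.

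RefSeq promoter windows (GRCm38.p6, 300 bases around each gene start) were matched to 61 replication-dependent genes and 9 variants. The windows of the 3 called genes and of *Hist1h4m* are printed because these 4 genes had the lowest p-values between genotypes. Capitals mark the CCAAT box (CCAAT), the TATA box (TATAAA) and the octamer of H2B promoters (ATTTGCAT), each searched on both strands. The windows are chr13:23574158-23574457 on the minus strand for *Hist1h2bf*, and on the plus strand chr13:21721794-21722093 for *Hist1h2bm*, chr13:23575513-23575812 for *Hist1h3d* and chr13:21811496-21811795 for *Hist1h4m*.

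Hist1h2bf: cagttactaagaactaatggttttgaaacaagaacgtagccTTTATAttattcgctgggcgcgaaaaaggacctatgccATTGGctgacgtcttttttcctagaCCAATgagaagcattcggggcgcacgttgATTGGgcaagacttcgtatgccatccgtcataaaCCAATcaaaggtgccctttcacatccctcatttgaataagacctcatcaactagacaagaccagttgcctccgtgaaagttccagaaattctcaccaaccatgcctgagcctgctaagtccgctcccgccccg

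Hist1h2bm: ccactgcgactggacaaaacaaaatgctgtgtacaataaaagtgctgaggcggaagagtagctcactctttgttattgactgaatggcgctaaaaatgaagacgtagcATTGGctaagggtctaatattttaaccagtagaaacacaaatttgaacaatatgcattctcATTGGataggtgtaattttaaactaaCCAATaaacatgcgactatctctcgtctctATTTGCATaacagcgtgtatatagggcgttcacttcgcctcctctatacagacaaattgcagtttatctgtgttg

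Hist1h3d: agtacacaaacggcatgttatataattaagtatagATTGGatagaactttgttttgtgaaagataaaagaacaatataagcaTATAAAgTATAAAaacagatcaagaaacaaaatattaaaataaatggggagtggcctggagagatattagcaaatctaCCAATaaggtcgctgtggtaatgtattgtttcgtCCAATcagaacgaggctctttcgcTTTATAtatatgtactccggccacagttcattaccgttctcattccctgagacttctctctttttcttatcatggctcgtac

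Hist1h4m: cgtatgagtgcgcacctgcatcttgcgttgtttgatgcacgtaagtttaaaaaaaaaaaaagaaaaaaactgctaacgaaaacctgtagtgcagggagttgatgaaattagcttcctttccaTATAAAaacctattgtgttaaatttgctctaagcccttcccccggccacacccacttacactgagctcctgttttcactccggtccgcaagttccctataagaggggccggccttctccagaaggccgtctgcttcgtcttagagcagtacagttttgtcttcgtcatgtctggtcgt

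A CCAAT match was present in 52 of 61 replication-dependent windows (85.2%), against 37.4% of all 32851 windows. All 10 H3 windows and all 16 H2B windows had one, but only 3 of 12 H4 windows. TATAAA was found in 57.4% of replication-dependent windows and in 13.6% of all. The octamer occurred in 6 of 16 H2B and 7 of 17 H2A windows, in no replication-dependent H1, H3 or H4 window, in 1 of 9 variant windows (*H3f3b*) and in 1.74% of all windows. These matches describe letters in the windows and not binding.

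*Hdac1* was measured at 8.95 and 13.1 FPKM in controls 1 and 2 and at 1.95, 3.12 and 3.37 FPKM in cKO 1, 2 and 3. All cKO libraries lay below both controls. The log2 difference was -1.66 (SE 0.21, limma adjusted p = 0.219), and with the set as a block it was -1.74 (limma adjusted p = 0.00389). Of the 12740 genes whose mean reached 1 FPKM, 1 passed an adjusted p of 0.05 (0.00785%), so genes were called by a fold of at least 1.5 and an unadjusted p under 0.05. The study used the same fold and p limits without saying whether its p was adjusted. The markers of hippocampal neurons were present, with all 10 listed genes tested. Astrocyte genes *Gfap* (309 and 263 FPKM in controls, 374, 364 and 415 FPKM in cKO) and *Aqp4* (54.4 FPKM in both controls, 89.4, 98.4 and 94.6 FPKM in cKO) were higher in every cKO library, while over all 15 astrocyte genes 10 differences were positive and 5 negative (median 0.01). Of 15 neuronal genes 14 had negative differences (median -0.13), and *Syn1* (-0.40), *Nefm* (-0.38) and *Stmn2* (-0.24) passed an unadjusted p of 0.05. Of 4 tested erythroid genes 3 differences were negative and 1 positive (median -0.23). The positive one, *Hba-a2*, was called and was at 0.653 FPKM in control 1 and at 28.2 to 42.5 FPKM in the other 4 libraries. Summed choroid plexus markers ranged from 6.8 FPKM in control 2 to 603.6 FPKM in cKO 2. In bulk tissue, fewer cells of a type and less RNA per cell cannot be told apart, and the part of these markers in the histone values was not tested.

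The libraries also fell into sets that cross the genotypes. In genes under 0.3 FPKM, 24.55% to 28.39% of the between-library ratios coincided within control 1 and cKO 1 (first set) and within control 2, cKO 2 and cKO 3 (second set), against 3.71% to 4.64% across the sets. The labels name no batch, and what the sets are is not stated. Differences between genotypes are therefore also given within each set, or with the set as a block, for the main genes below.

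In each hippocampal library, 63 to 68 of the 80 histone genes were above 0 FPKM. The 80 genes summed to 3354 and 2924 FPKM in control libraries and to 3910, 3137 and 3242 FPKM in cKO libraries. This was 0.517% to 0.614% of all FPKM, and cKO 1 had the highest sum. Replication-dependent genes made up 72.27% to 76.33% of histone FPKM in the 5 libraries. H4 alone took 47.67% to 50.73%, replication-dependent H2B 13.15% to 14.94% and H3 3.95% to 4.88%. All of these shares are per length, on the FPKM scale.

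**Figure D1:**
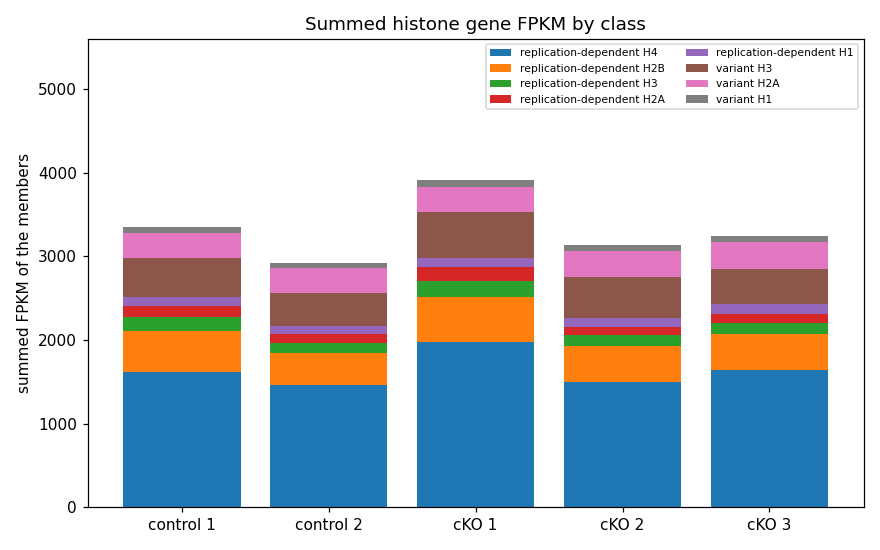
Summed FPKM (vertical axis) of replication-dependent and variant histone genes by class in each library. H4 forms the largest block in all 5 libraries, and cKO 1 has the highest total at 3910 FPKM.

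Of the 80 genes, 63 reached a mean of 1 FPKM and were tested, 53 replication-dependent and 10 variant. Another 8 were listed at 0 in every library (the variant *H2afb1* and 7 genes of the Hist1 cluster), and 9 were above 0 in at least 1 library without reaching the filter. Of the 8 at 0, 5 have a copy of at least 99% identity among the members. The match runs over the whole gene in *Hist1h2ao* and *Hist1h2ap* (100%) and in *Hist1h2bq* and *Hist1h2br* (99.8%), but over 389 of 572 bases in *Hist1h2ad* (99.2% to *Hist1h2ai*). The part of shared sequence in these zeros was not tested.

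No variant gene was called between genotypes. *H3f3a* and *H3f3b* both encode the replacement histone H3.3, from different loci. *H3f3a* was measured at 336 and 269 FPKM in controls and 399, 367 and 301 FPKM in cKO, and the groups overlapped. Its log2 difference was 0.23 (SE 0.15, limma adjusted p = 0.955). Within the first and second set it was 0.25 and 0.31, and with the set as a block it was 0.28 and passed an unadjusted p of 0.05 (limma adjusted p = 0.477). It was 0.0743 without control 2 and 0.394 without control 1. *H3f3b* was measured at 133 and 124 FPKM in controls and 143, 122 and 126 FPKM in cKO, with a difference of 0.02 (SE 0.10). *H3f3a* has near-identical processed copies in the genome, and *H3f3b* is matched by the pseudogene *Gm6485* (98.4% over 366 bases).

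*H2afz* encodes H2A.Z, a variant found at promoters. Its values were 195 and 208 FPKM in controls and 210, 230 and 230 FPKM in cKO. All cKO libraries lay above both controls, by a small margin, and the log2 difference was 0.15 (SE 0.10, limma adjusted p = 0.955). The pseudogene *Gm8203* matches *H2afz* at 100% over 496 of 1069 bases, and the part of this match in the values was not tested. The second H2A.Z gene, *H2afv*, was lower, at 26.6 to 31.0 FPKM, and its groups overlapped. *H1f0* encodes the linker histone H1.0 of differentiated cells. It was measured at 58.1 and 55.5 FPKM in controls and 60.8, 61.9 and 60.6 FPKM in cKO, a difference of 0.10 (SE 0.09, limma adjusted p = 0.955).

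MacroH2A genes carry a large extra domain and spread little between libraries in the first case and more in the second. *H2afy* gave 29.3 to 31.6 FPKM in the 5 libraries and *H2afy2* gave 3.43 to 5.36 FPKM. The log2 differences were 0.02 (SE 0.09) and 0.11 (SE 0.17).

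The remaining 3 variants had negative differences and large spread. *H2afx* encodes H2A.X, which is phosphorylated at DNA breaks. It was measured at 18.9 and 11.4 FPKM in controls 1 and 2 and at 17.3, 7.58 and 10.9 FPKM in cKO 1, 2 and 3. The 2 high values belong to the first set, 1 of each genotype. The genotype difference was -0.35 (SE 0.31, limma adjusted p = 0.956), and -0.12 and -0.30 within the sets. *H1fx*, a linker variant, followed the same order, with 15.1 and 9.07 FPKM in controls and 14.05, 5.44 and 7.24 FPKM in cKO (-0.45, SE 0.34, limma adjusted p = 0.955). *H2afj*, an H2A variant, gave 19.3 and 14.7 FPKM in controls and 17.5, 11.1 and 13.6 FPKM in cKO (-0.26, SE 0.19). Without cKO 1, *H1fx* gave -0.80 and *H2afx* -0.64, so that both were called (limma adjusted p = 0.632 for each) along with 1.18% of all tested genes in that fit, whereas without control 1 they gave -0.12 and -0.0112.

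**Figure D2:**
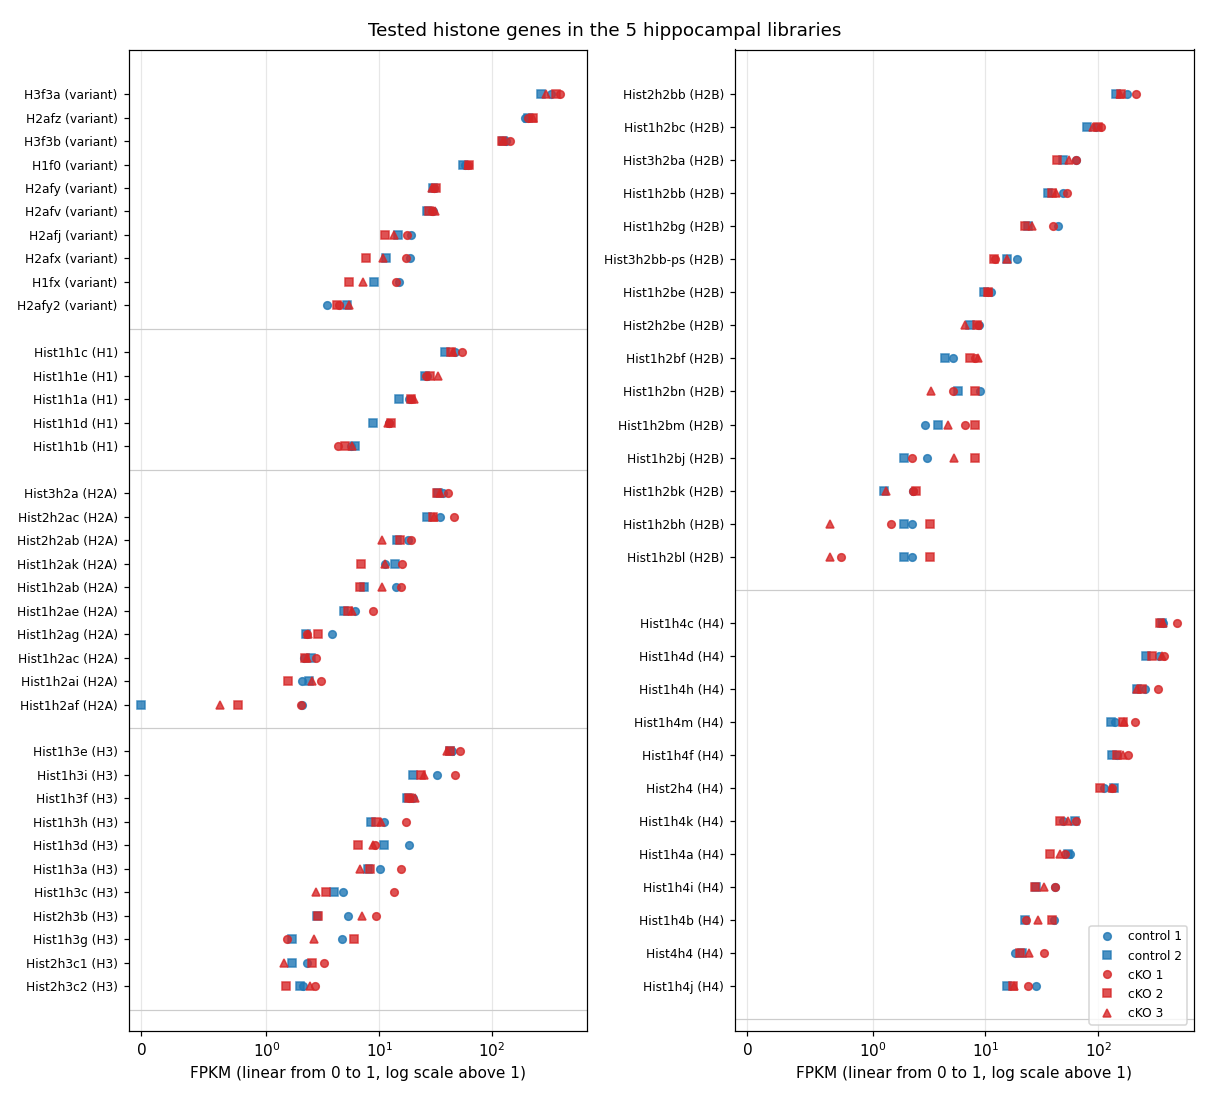
FPKM of the 63 tested histone genes in each library (horizontal axis, linear up to 1 and log scale above), grouped by class and ordered by mean. Blue marks control and red cKO, and shapes mark the replicate number. Control and cKO points are intermixed for most genes, with all cKO points above both controls in 7 genes and below in 3, beside 11% and 9.41% of all tested genes.

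Of 53 tested replication-dependent genes, 2 were called higher in cKO and 1 lower. Over all tested genes 0.4% were called higher and 0.259% lower (0.659% in either direction). Without cKO 2 the number called was 7, beside 0.722% of all tested genes. With near-identical copies summed it was 0, beside 0.638%. *Hist1h2bf* and *Hist1h2bm* averaged 6.70 and 5.21 FPKM, in an H2B sum of 170 to 239 FPKM. *Hist1h3d* averaged 10.8 FPKM, in an H3 sum of 119 to 191 FPKM. Sums made up mostly of other genes cannot show whether the differences of these 3 hold. The 3 called genes were chosen by the genotype contrast, their adjusted p was 0.955 in limma, and none passed adjustment. At unadjusted p under 0.05 alone, 3 were higher and 2 lower, against 2.37% higher and 1.99% lower over all tested genes. With the library set as a block, 13 of the 53 had an unadjusted p under 0.05 and were higher and 3 were lower, against 5.32% higher and 4.02% lower over all tested genes. The added genes included *Hist1h3i* (0.37), *Hist1h4f* (0.28), *Hist2h2ac* (0.27), *Hist2h2bb* (0.20) and *Hist1h1c* (0.19), and the added gene with a negative difference was *Hist1h4a* (-0.26). All of these were under 1.5-fold, and the called genes still numbered 3. In that fit 0 histone genes passed an adjusted p of 0.05 in limma (lowest 0.207), beside 5 of all tested genes (0.0392%). Non-overlapping groups were seen in 7 of 63 histone genes with cKO above and 3 with cKO below, against 11% and 9.41% of all tested genes. In 22 of the 53 replication-dependent genes the within-set differences had opposite signs. Differences were above 0 in 42 of 63 histone genes, beside 53.7% of all tested genes. After rescaling to a common total they were above 0 in 31 of 63, beside 37.4% of all tested genes.

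*Hist1h2bf* encodes an H2B and lies at chromosome 13, 23665605 to 23666065 on the minus strand (mm9), in 1 exon. It was measured at 5.15 and 4.41 FPKM in controls and 8.04, 7.31 and 8.60 FPKM in cKO. The groups did not overlap, and the log2 difference was 0.64 (SE 0.13, limma adjusted p = 0.955), with 0.56 and 0.72 within the sets. In the second set its FPKM are whole multiples (within 0.02 of a whole number) of a step shared by 7 H2B genes, chosen after their values were seen. Read as fragments, they are 7 in control 2 (exact Poisson 95% interval 2.81 to 14.4), 9 in cKO 2 (4.12 to 17.1) and 13 in cKO 3 (6.92 to 22.2). These intervals overlap, and they cover counting error only.

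*Hist1h2bm*, a further H2B gene (chromosome 13, 21813913 to 21814436, plus strand, 1 exon), was measured at 2.94 and 3.78 FPKM in controls and 6.58, 8.12 and 4.63 FPKM in cKO. No overlap was seen, and the difference was 0.75 (SE 0.21, limma adjusted p = 0.955), with 0.94 and 0.58 within the sets. The step counts were 6 fragments in control 2, 10 in cKO 2 and 7 in cKO 3. Both genes have 11 near-identical copies among the H2B genes, the closest at 98.4% and 97.9%. Chains of such matches join 14 H2B genes into a group, not all of which match each other. Summed over that group, FPKM were 229 and 170 in controls and 239, 212 and 194 in cKO. The difference was 0.12 (SE 0.15, limma adjusted p = 0.973), with 0.06 and 0.25 within the sets.

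*Hist1h3d* encodes an H3 (chromosome 13, 23667632 to 23668880, plus strand, 1 exon) and was the called gene that fell. Its values were 18.5 and 11.1 FPKM in controls and 9.16, 6.45 and 8.76 FPKM in cKO. The difference was -0.77 (SE 0.22, limma adjusted p = 0.955), with -0.94 and -0.51 within the sets. Without control 1 it was -0.42 and missed the unadjusted p of 0.05. The other 10 tested H3 genes had positive differences, from 0.04 to 0.49, and none reached an unadjusted p of 0.05 without the set block, while *Hist1h3h* and *Hist1h3i* did with it. Chains of near-identical matches join 12 H3 genes, of which 10 match *Hist1h3d* directly. Over these 12 together the difference was 0.07 (SE 0.20, limma adjusted p = 0.989), with 0.26 and 0.08 within the sets.

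*Hist1h4m* was measured at 140 and 129 FPKM in controls and 212, 165 and 169 FPKM in cKO. All cKO libraries exceeded both controls, with a difference of 0.43 (SE 0.13, limma adjusted p = 0.955) that is under the 1.5-fold limit, and 0.60 and 0.37 within the sets. Without control 2 it was 0.37 and missed the unadjusted p of 0.05. Its 99.8% identical copy *Hist1h4n* was listed at 0 in 4 libraries and at 0.951 FPKM in cKO 3. *Hist1h4m* belongs to a group of 10 H4 genes joined by chains of near-identical matches, and 6 of them match it directly. Over that group the difference was 0.14 (SE 0.15, limma adjusted p = 0.965), with 0.33 and 0.08 within the sets. *Hist3h2bb-ps*, an H2B pseudogene, gave 19.1 and 15.6 FPKM in controls and 12.1, 11.8 and 15.4 FPKM in cKO. Its difference was -0.38 (SE 0.15, limma adjusted p = 0.955), with -0.61 and -0.19 within the sets. It was -0.24 without control 1, and it missed the unadjusted p of 0.05 without cKO 1 (-0.33) or cKO 2 (-0.31). Summed with its 97.2% identical copy *Hist3h2ba*, the difference was -0.14 (SE 0.16, limma adjusted p = 0.973), with -0.13 and -0.05 within the sets.

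**Figure D3:**
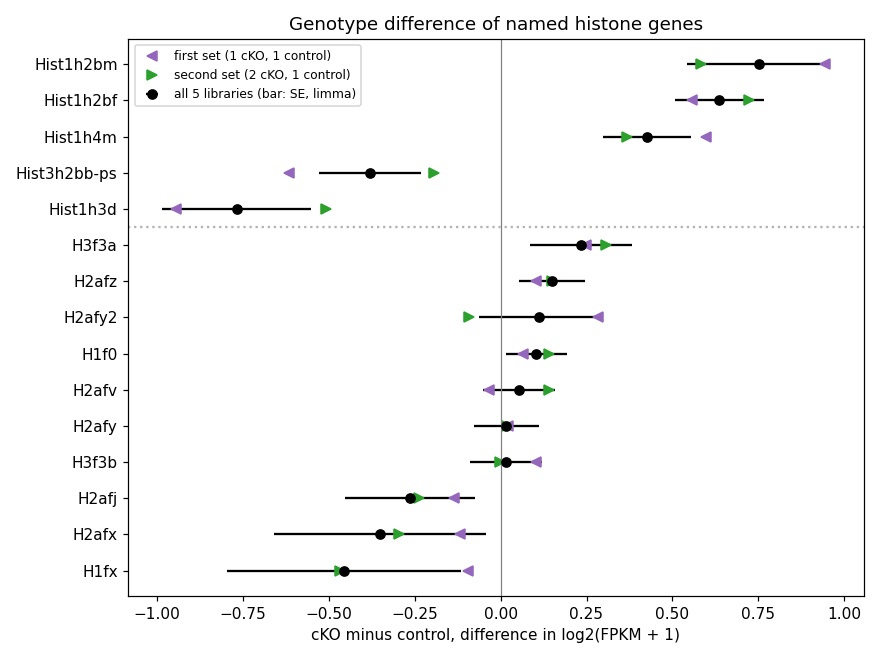
Difference in log2(FPKM + 1), cKO minus control, for the 5 replication-dependent genes with p under 0.05 (above the dotted line) and the 10 tested variants. Black points give all 5 libraries with the SE from limma, and triangles the first and second set. The groups of the 5 upper genes do not overlap, which fixes the sign within the sets. The variants *H2afy2*, *H2afv* and *H3f3b* have opposite signs.

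The most abundant replication-dependent gene of each class did not pass an unadjusted p of 0.05 with genotype alone. With the set block *Hist2h2bb* and *Hist1h1c* did. In H4 the leading gene was *Hist1h4c*, with 376 and 370 FPKM in controls and 496, 350 and 378 FPKM in cKO (0.11, SE 0.15), with 0.40 and -0.03 within the sets. In H2B it was *Hist2h2bb*, at 180 and 143 FPKM in controls and 217, 160 and 156 FPKM in cKO (0.13, SE 0.17, and 0.27 and 0.14 within the sets). Both were highest in cKO 1.

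Among replication-dependent linker genes *Hist1h1c* led with 46.8 and 38.6 FPKM in controls and 53.6, 43.2 and 45.2 FPKM in cKO (0.15, SE 0.13, and 0.19 within each set). *Hist1h3e* led the replication-dependent H3 genes at 40.3 to 51.9 FPKM, and *Hist3h2a* the H2A genes at 32.4 to 40.4 FPKM. The variants *H1f0*, *H3f3a*, *H3f3b* and *H2afz* were above the leading replication-dependent gene of their own class in every library. The difference of *Hist1h3e* was 0.04 (SE 0.12), with 0.22 and -0.03 within the sets, and that of *Hist3h2a* 0.02 (SE 0.12), with 0.12 and 0.01. *Hist3h2a* shares 708 of its 1990 exonic bases with *Trim17* on the same strand.

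By class, median log2 differences of tested replication-dependent genes were 0.15 for H1 (5 genes), 0.03 for H2A (10), 0.01 for H2B (15), 0.09 for H3 (11) and 0.05 for H4 (12). The median over all 53 was 0.05 and over the 10 variants 0.04, beside 0.01 over all tested genes. Beside other genes of like length the replication-dependent genes lay on either side, with 0.08 against 0.13 at 400 to 600 bases (22 histone genes) and 0.14 against 0.07 at 600 to 1000 bases (9 histone genes). Beside other genes of like GC content they were higher in the upper ranges, with 0.11 against -0.06 at 55% to 60%, 0.05 against -0.13 at 60% to 65% and 0.23 against -0.18 above 65% (3 histone genes). The part of length and GC content in the genotype values was not tested.

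H2A and H2B genes often share a promoter region. In 13 such pairs with starts within 1000 bases, divergently transcribed, H2B had the higher mean FPKM in 6, H2A in 4, and 3 pairs were at 0 in both. The widest gap was between *Hist1h2bc* at 94.6 FPKM and *Hist1h2ac* at 2.38 FPKM, whose starts lie 251 bases apart. *Hist1h2ad*, the divergent partner of *Hist1h2bf*, was listed at 0.

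The difference between the library sets was larger for histone genes than that between genotypes. In a fit with genotype and set, 54 of 63 were lower in the second set, beside 40.6% of all tested genes, with a median of -0.23 beside 0.05 over all tested genes. Past an adjusted p of 0.05 in limma, 11 histone genes were lower in the second set and 0 higher, beside 1.6% lower and 1.49% higher over all tested genes. The 11 were *H1fx*, *H2afx*, *Hist1h2ab*, *Hist1h2af*, *Hist1h2bb*, *Hist1h2bg*, *Hist1h3i*, *Hist1h4i*, *Hist1h4j*, *Hist2h2ac* and *Hist2h2bb*. *Hist1h3i*, for instance, was at 32.7 FPKM in control 1 and 47.1 in cKO 1, and at 19.9, 23.5 and 25.0 FPKM in control 2, cKO 2 and cKO 3. Both genotypes of the first set lay above all of the second.

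GC content moved with this difference. Other tested genes with 60% to 65% GC had a median set difference of -0.24, and those above 65% of -0.54, whereas genes at 45% to 50% had 0.10. Replication-dependent genes had -0.24 at 60% to 65% (19 genes), but -0.21 at 45% to 50% (5 genes) and -0.27 at 55% to 60% (15 genes), where other genes had -0.06. Spearman's rho of set difference with GC was -0.305 across the 63 histone genes and -0.358 across 11845 others, as a description across genes, which share libraries. The part of GC content in the histone values was not tested.

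**Figure D4:**
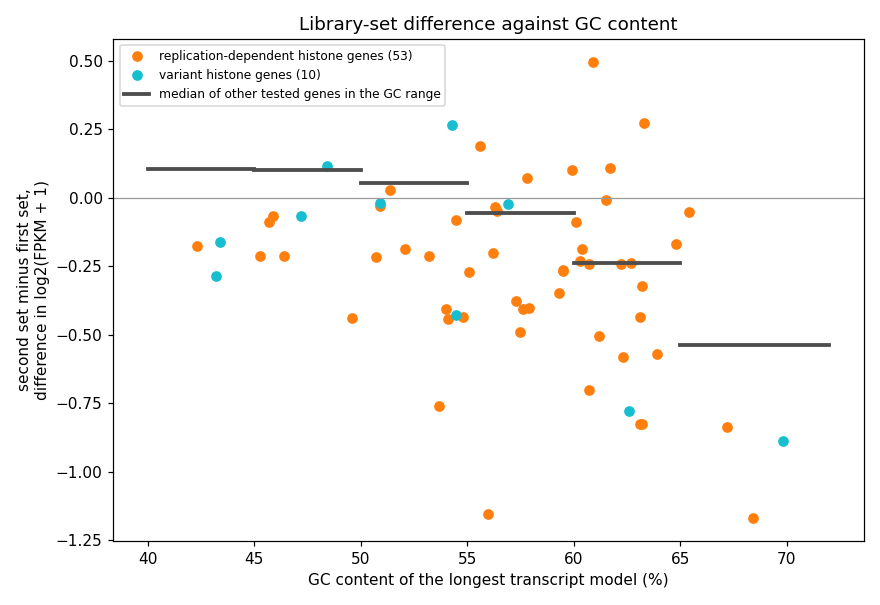
Second set minus first set, difference in log2(FPKM + 1) with genotype in the model, against GC content of the longest transcript model (%). Points are tested histone genes and grey bars the medians of other tested genes in each GC range, from 0.10 at 45% to 50% down to -0.54 above 65%. Most histone genes lie below 0.

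None of the tested genes in the lists below had an unadjusted p under 0.05 in limma. Over all tested genes 2.37% passed it as higher and 1.99% as lower. In lists this short, 0 lies near those shares. In the list of histone transcription and mRNA processing, 22 of 24 genes were tested, 13 with positive and 9 with negative differences (median 0.03), and 0 had unadjusted p under 0.05 in limma. *Slbp*, whose product binds the stem-loop, was measured at 13.6 and 15.7 FPKM in controls and 11.9, 20.3 and 13.4 FPKM in cKO (0.02, SE 0.20). *Npat*, the coactivator of histone gene transcription, gave 4.40 and 5.59 FPKM in controls and 4.53, 5.20 and 5.17 FPKM in cKO. Of 34 tested histone chaperone and remodelling genes 21 were positive and 13 negative (median 0.03), and of 13 tested S phase and proliferation genes 8 were positive and 5 negative (median 0.04), again with 0 at p under 0.05 in limma. S phase genes summed to 82.4 to 93.5 FPKM over 30 genes in the 5 libraries.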

How the data were processed

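RNA-seq libraries were made from total hippocampal RNA with a TruSeq Total RNA kit. The authors aligned reads to mm9 with TopHat and Bowtie and deposited FPKM from Cufflinks 2.0.0, 1 file for each library. The study gives a mean read yield per sample. A total for each library and the use of strand are not given in the sources used here. The members and lists were chosen with earlier results of these data known.

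Genes whose mean reached 1 FPKM were tested with limma 3.58.1 (R 4.3.3, mean-variance trend) on log2(FPKM + 1), genotype as the only term, two-sided, with Benjamini-Hochberg adjustment over all tested genes. Fold changes are on that scale and understate low genes. The script was tested on simulated data. Nothing in the labels says more of the mice than 1 sample each, so p-values measure the spread between these samples. Genes named were *Hdac1*, all tested variants, replication-dependent genes with p under 0.05, the highest gene of each class, *Slbp* and *Npat*, and list genes with p under 0.05. Others were chosen after their values were seen. Near-identical copies (BLAST 2.17.0, at least 95% identity over 200 bases, GENCODE vM1 models on mm9) were summed as plain FPKM. Genes were grouped through chains of such matches, so not all genes of a group match each other. Library sets joined libraries sharing over 10% of ratios in a window of 0.05 log2. A replicate block paired libraries by sample number. cKO 3 has no partner and drops out of the genotype differences in that fit. Differences and p-values there rest on the same-numbered pairs and not on all libraries. The settings tried are given in the closing section.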

Additional observations from a re-analysis of the deposited data

How the results depend on the processing

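The lower level of *Hdac1* kept its direction and its unadjusted p under 0.05 in all alternatives run, between -1.91 and -1.41 when 1 library was left out, and its adjusted p in limma, 0.219 as reported, was 0.0115 under the replicate block and 0.00389 under the block of library sets, in a range of 0.00389 to 0.846. The number of called replication-dependent genes was 3, and 2 to 7 with 1 library left out, the 7 without cKO 2, where 0.722% of all tested genes were called. With near-identical copies summed, which leaves fewer units, it was 0, where 0.638% of all tested units were called. The called genes are a small part of their sums, so this count cannot show whether their own differences hold. The cause was not tested. The number of called variants was 0, and 0 to 2 with 1 library left out, the 2 without cKO 1 (*H1fx* and *H2afx*), where 1.18% of all tested genes were called. The median log2 difference was 0.05 for replication-dependent genes and -0.0578 to 0.249 with 1 library left out, the highest without control 1. For variants it was 0.04 and -0.01 to 0.08. Rescaling to a common total gave medians of 0.0007 and -0.0296, beside -0.0467 over all tested genes. With the replicate block, the called replication-dependent genes numbered 3, the called variants 0, and the medians were 0.10 and 0.03. Of the 22 genes named by rule, *H1fx* (-0.37), *H2afx* (-0.33), *H2afj* (-0.25), *H3f3a* (0.35), *Hist1h1c* (0.18) and *Hist2h2bb* (0.22) newly passed an unadjusted p of 0.05 there. Further histone genes passed it too. Over all 12740 tested genes 1430 passed it in that fit. The samples share only a number, with 2 pairs, whose deviations correlated at 0.402 and 0.269. cKO 3 has no partner, so differences in that fit equal those without it. The replicate block raised the called genes over all tested from 84 to 133, and the set block to 95. Of 306 values of 22 named genes under alternatives, 25 changed sign, all of genes not past the threshold. Rescaling to a common total gave -0.0101 for *H2afv*, -0.0491 for *H2afy*, -0.0502 for *H3f3b*, -0.0412 for *Hist3h2a*, -0.0243 for *Hist1h3e* and -0.0446 for *Slbp*, quantile normalization gave -0.0002 for *H2afy*, -0.0317 for *H3f3b* and 0.0076 for *Npat*, and the set block gave -0.0370 for *Slbp*. The lowest and highest values with 1 library left out were -0.0277 and 0.137 for *H2afv*, -0.0070 and 0.0467 for *H2afy*, -0.13 and 0.35 for *H2afy2*, -0.0521 and 0.0664 for *H3f3b*, -0.0665 and 0.112 for *Hist1h3e*, -0.0363 and 0.214 for *Hist1h4c*, -0.0374 and 0.298 for *Hist2h2bb*, -0.0625 and 0.0985 for *Hist3h2a*, -0.15 and 0.14 for *Npat* and -0.19 and 0.17 for *Slbp*. The other alternatives were a pseudocount of 0.1, no filter, a minimum mean of 5 FPKM, median-ratio size factors and no variance trend. Without a filter, *Hist1h3d* and *Hist3h2bb-ps* missed the unadjusted p of 0.05. The adjusted p of the 3 called genes in limma, 0.955 as reported, ranged from 0.094 to 1 over the alternatives. Read totals for each library are not given in the sources used here. If the steps of the H2B genes in the second set are read as fragments, their few FPKM rest on few fragments. No common step was found in control 1 or cKO 1.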
